A study of Homo sapiens with 14 samples.

Results

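Indisulam added to palbociclib in A549 cells is described here across all genes: 4 of the 14 libraries of the series, 2 from cells given both drugs and 2 from cells given palbociclib alone, chosen by their sample labels. A549 is an established human lung adenocarcinoma line. Palbociclib alone (PD) was given at 2 µM for 10 days, and the combination (P+I) was 2 µM palbociclib with 0.5 µM indisulam for 10 days, so every library of the comparison carried palbociclib. Untreated cells (UT) and cells given 0.5 µM indisulam alone for 10 days (IN), each with 2 libraries, show the same drug without palbociclib. The labels do not give the time at which the untreated cells were collected. The series design calls the duplicates technical, so the p-values below measure spread that may be technical only. The fit that gives the spread also held 2 A549 libraries from cells given 0.5 µM PF-06873600, an inhibitor of CDK2 as well as CDK4 and CDK6, for 7 days, which enter no comparison here.

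Palbociclib blocks the kinases CDK4 and CDK6, which phosphorylate the retinoblastoma protein at the start of the cell cycle and so free E2F factors to switch on the genes of DNA synthesis and division. Indisulam is an aryl sulfonamide that glues the splicing factor RBM39 to the ubiquitin ligase receptor DCAF15, after which RBM39 protein is degraded and the splicing of many transcripts changes. The comparison asks what transcripts change when loss of this splicing factor is laid over CDK4/6 inhibition, a pairing the study examined for its induction of senescence, a lasting arrest with changed chromatin and a secreted inflammatory and matrix programme. No protein was measured here.

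Reads counted on genes numbered 13475593 and 16388606 in the palbociclib libraries and 14103047 and 15537212 in the combination libraries. Levels are CPM, counts scaled to the library's total on genes, which are not corrected for gene length and are compared only within a gene. A level of 3 counts, from 0.183 to 0.223 CPM in these libraries, was taken as the lowest that can be read, a limit that covers counting error only. Both groups carried the markers of simple epithelium. The summed level of KRT7, KRT8, KRT18, KRT19, EPCAM and CDH1 was 8990 and 9116 CPM with palbociclib and 13820 and 13240 CPM with the combination. Of 18 markers of blood, endothelial and fibroblast cells, 4 had no count in any of the 4 libraries (among them CD3E, MS4A1 and NKG7), and the pan-leukocyte gene PTPRC held 0, 0, 2 and 1 counts. The summed level of the 18 was 14.8 and 13.7 CPM with palbociclib and 97.6 and 94.1 CPM with the combination, and without the collagen gene COL1A1 it was 11.4 and 9.58 against 23.97 and 20.6 CPM. The part of other cells in the results was not tested.

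Differences between P+I and PD are log2 fold changes with their standard error (SE) from edgeR's quasi-likelihood test across 15780 genes, with Benjamini-Hochberg adjusted p-values and a threshold of 0.05. Of the genes tested, 5279 (33.5%) were higher and 4250 (26.9%) lower with the combination. A difference of at least 2-fold was found for 2316 higher genes (14.7%) and 1105 lower genes (7.00%), one of at least 4-fold for 995 and 282, and one of at least 8-fold for 484 and 48. The large changes were thus mostly rises. The excess was smaller among genes with a mean of at least 50 counts, of which 1050 were at least 2-fold higher and 750 at least 2-fold lower. The balance of all calls turned with the scaling of the libraries. Higher genes made up 55.4% of calls with total counts, 47.27% with TMM factors and 50.8% with DESeq2, while the median over all genes was 0.05 with total counts, -0.04 with TMM factors and 0.01 with DESeq2. Both combination libraries lay above both palbociclib libraries in 44.4% of genes tested and below them in 37.1%, so a lack of overlap was the usual case. The counts of members given below are read against these shares.

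**Figure D1:**
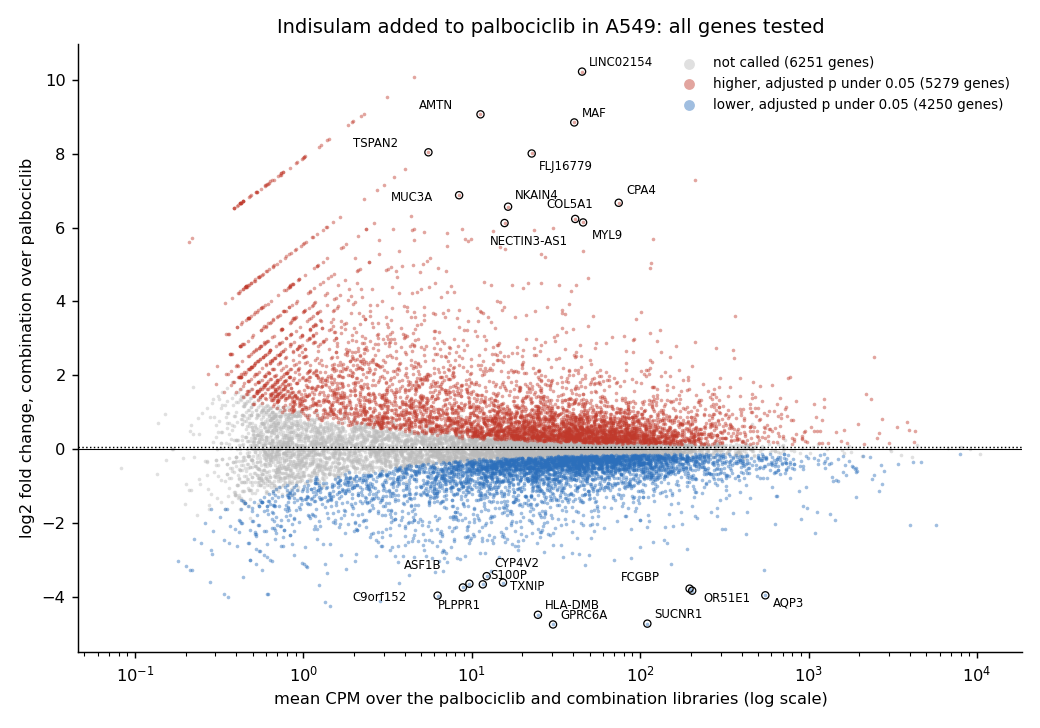
Each point is 1 of the 15780 genes tested, with its mean CPM over the palbociclib and combination libraries (log scale) on the x axis and its log2 fold change of P+I over PD on the y axis. Red and blue points passed an adjusted p of 0.05 as higher (5279) or lower (4250), ringed points are named genes among the 12 largest rises and the 12 largest falls of genes reaching 10 CPM, and the dotted line is the median of all genes. Among the named genes the rises reach further from 0 than the falls, with LINC02154 at 10.22 and GPRC6A at -4.75.

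The 12 largest rises were in genes that were at low levels with palbociclib alone. LINC02154, a long non-coding RNA gene at chrX:13266041-13303452 (hg38, GENCODE release 44), held 1 count in each palbociclib library and 93 and 87.5 CPM with the combination. That is 2 counts against 2671, a ratio of 1346 with an exact 95% counting interval of 372 to 11120. MAF, a basic leucine zipper transcription factor, went from 5 counts in the palbociclib pair to 2403, a ratio of 484 (207 to 1493), with 79.98 and 82.1 CPM in the combination libraries. AMTN, which encodes the enamel protein amelotin, had 1 count against 665 (ratio 670, interval 120 to 26500), and the tetraspanin gene TSPAN2 had 1 against 326 (ratio 329, interval 58.5 to 13010).

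Matrix, protease and muscle-type genes were among the other rises. The carboxypeptidase gene CPA4, at chr7:130293134-130324180, rose from 1.56 and 1.34 to 151 and 144 CPM (log2 fold change 6.67 ± 0.15, adjusted p = 1.47e-13), the fibrillar collagen gene COL5A1 from 1.04 and 1.1 to 79 and 83.3 CPM (6.23 ± 0.14), and MYL9, a regulatory light chain of smooth muscle and non-muscle myosin, from 1.48 and 1.1 to 91.5 and 89.1 CPM (6.14 ± 0.14). The 3 genes are here by a rule that asks for a large change without overlap. The membrane mucin gene MUC3A held 4 counts against 496, a ratio of 125 (48.5 to 460). NKAIN4, which encodes a protein that binds the sodium pump, rose from 0.371 and 0.305 to 32.9 and 32.1 CPM, and FLJ16779, a non-coding gene on the opposite strand of the same stretch of chromosome 20, from 5 counts in the pair to 1341. Because these 2 genes overlap and the strand setting of the counting is not given in the sources used here, their reads cannot be told apart. The same holds for NECTIN3-AS1, antisense to NECTIN3, which rose from 0.297 and 0.549 to 31.6 and 30.2 CPM.

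The genes with the largest falls had varied roles. GPRC6A, an amino acid sensing receptor, fell from 60.3 and 56.9 to 2.34 and 1.995 CPM (log2 fold change -4.75 ± 0.18, adjusted p = 2.42e-11), and SUCNR1, the succinate receptor, from 214 and 211 to 7.66 and 8.3 CPM (log2 fold change -4.73 ± 0.10, adjusted p = 1.34e-13). AQP3, a channel for water and glycerol at chr9:33441156-33447596, was among the more abundant transcripts with palbociclib at 1053 and 1028 CPM and was left at 69 and 64.3 CPM (log2 fold change -3.96 ± 0.07, adjusted p = 9.18e-15). The olfactory-type receptor gene OR51E1 fell from 378 and 383 to 25.3 and 27.8 CPM, FCGBP, a mucus protein that binds the Fc part of IgG, from 424 and 309 to 26.7 and 26.5 CPM, and HLA-DMB, which loads peptides on class II molecules, from 48.5 and 46.1 to 2.2 and 1.995 CPM. FCGBP was the least even of the 3 between the palbociclib libraries. S100P, a calcium-binding protein, had a log2 fold change of -3.67 ± 0.14, C9orf152 one of -3.97 ± 0.20, the neuronal membrane protein gene PLPPR1 one of -3.75 ± 0.22, and CYP4V2, a fatty acid hydroxylase, one of -3.45 ± 0.18. TXNIP, the inhibitor of thioredoxin that is induced by glucose, fell from 28.6 and 28 to 2.69 and 1.93 CPM, and ASF1B, the histone chaperone of dividing cells, from 18.8 and 17.1 to 1.49 and 1.35 CPM. Among genes left with at most 3 counts in each combination library, the most abundant with palbociclib were the adhesion gene CADM2 (76 counts in the palbociclib pair against 4, 18.9-fold lower, interval 7.07 to 71.0), the alcohol dehydrogenase gene ADH1B (68 against 5, 13.5-fold lower, 5.51 to 42.9) and LRRC32, which presents latent TGF-beta (58 against 6, 9.59-fold lower, 4.15 to 27.2).

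The transcript of the drug's own target was higher, not lower. RBM39, at chr20:35701347-35742312, measured 120.1 and 142 CPM with palbociclib and 229 and 227 CPM with the combination (log2 fold change 0.80 ± 0.08, adjusted p = 5.14e-07). These are counts over the whole gene, which do not show which splice forms they come from. DCAF15, the receptor that holds the drug, was at 12.6 and 10.6 against 13.5 and 12 CPM, groups that overlapped and a difference that did not pass (adjusted p = 0.392). Of the ligase subunits around it, the adaptor DDB1 (0.39 ± 0.05), its partner DDA1 (0.47 ± 0.07) and the scaffold CUL4B (0.64 ± 0.06) rose, the RING subunit RBX1 (-0.38 ± 0.10) fell, and CUL4A (-0.07 ± 0.06, adjusted p = 0.345) did not pass with total counts but did with TMM factors. RBM23, the close relative of RBM39 that indisulam also recruits, fell from 99 and 93.8 to 81 and 82.1 CPM (log2 fold change -0.24 ± 0.06, adjusted p = 0.00255).

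CCNH, the cyclin of the CDK-activating kinase that phosphorylates both CDK4 and CDK2, was the member of that kinase that changed most. It stood at 19.5 and 19 CPM with palbociclib and at 9.71 and 9.07 CPM with the combination (log2 fold change -1.04 ± 0.11, adjusted p = 1.2e-06). Its kinase partner CDK7 had overlapping levels of 36.1 and 41.1 against 41.6 and 37.9 CPM (adjusted p = 0.769), and the assembly factor MNAT1 was at 22.5 and 19.2 against 16.2 and 17.8 CPM (log2 fold change -0.28 ± 0.10, adjusted p = 0.0298), a call that was lost in 4 of 10 alternatives. Of the 12 CDK-activating and transcriptional kinases and cyclins, 4 were higher (1 with TMM factors, 2 with DESeq2) and 2 lower. CCNK, the cyclin of the elongation kinases CDK12 and CDK13, rose from 79.1 and 80.1 to 137 and 139 CPM (0.80 ± 0.06).

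**Figure D2:**
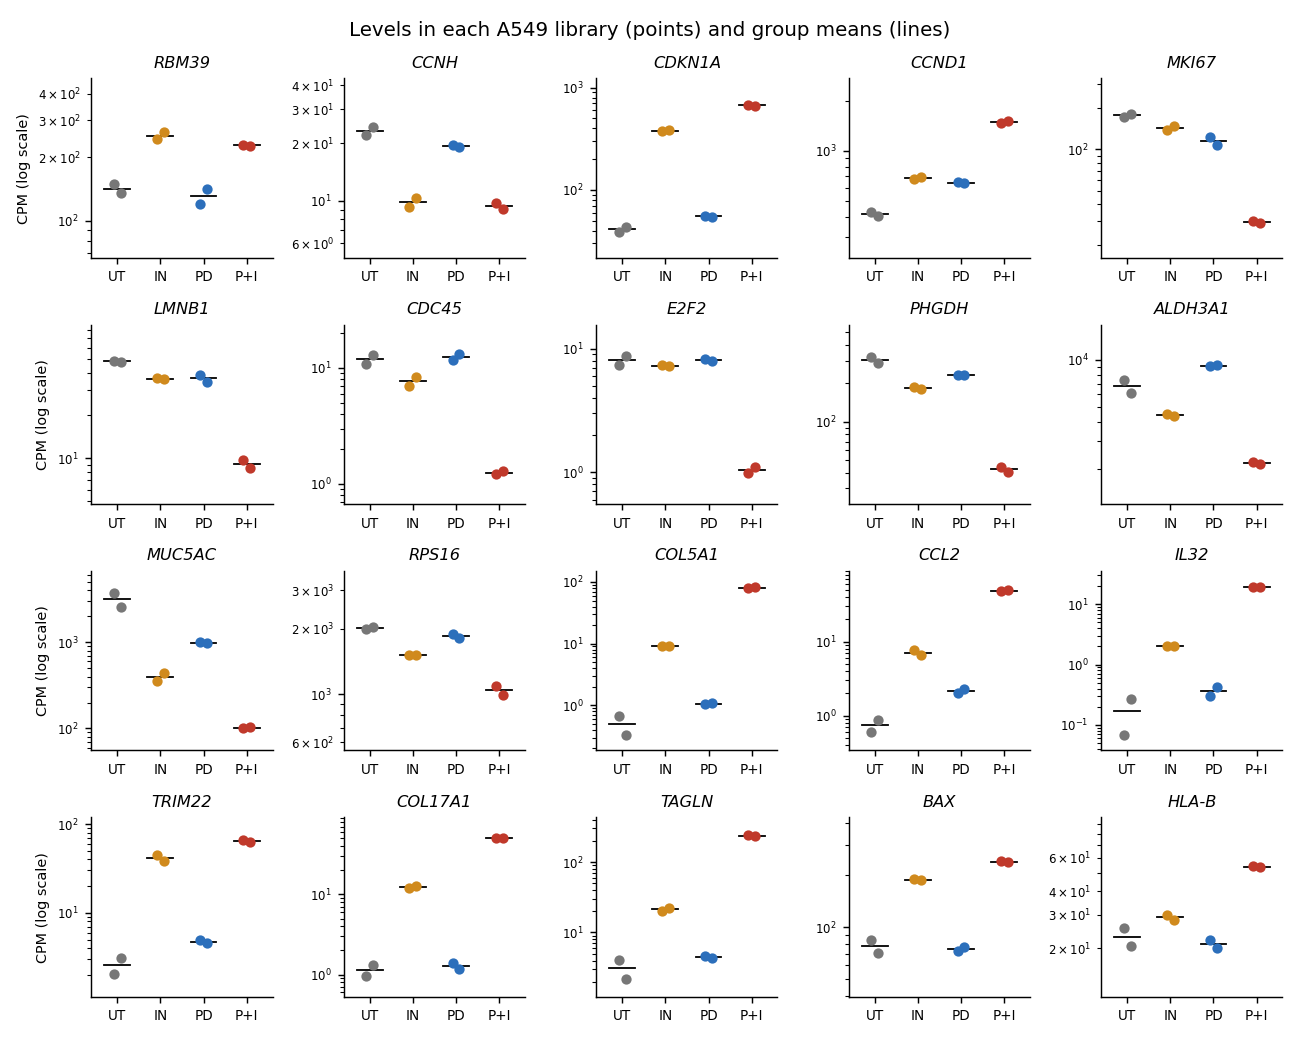
Each panel shows the level of 1 gene in CPM (log scale) in the 2 libraries (points) of untreated (UT), indisulam (IN), palbociclib (PD) and combination (P+I) cells, with a line at each group mean. In every panel the 2 combination libraries lie to 1 side of the 2 palbociclib libraries, from MKI67 at 123 and 107 against 30.0 and 29.3 CPM to TAGLN at 4.6 and 4.39 against 238 and 231 CPM, and for RBM39 and CCNH the combination lies beside indisulam alone.

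Genes of division fell throughout. Of 65 genes of mitosis and G2/M, 64 could be tested and all 64 were lower (against 26.9% of all genes), 57 of them at least 2-fold (against 7.00%), with a median log2 fold change of -2.003 and a range from -3.05 to -0.50. MKI67, the proliferation antigen Ki-67 at chr10:128096659-128126423, measured 123 and 107 CPM with palbociclib and 29.99 and 29.3 CPM with the combination (log2 fold change -1.96 ± 0.09, adjusted p = 1.18e-10). The kinetochore genes CENPI (13 and 12.3 to 1.42 and 1.61 CPM) and KNL1 (15.3 and 16.7 to 2.27 and 2.06 CPM), the condensin subunit NCAPH (15.6 and 14.5 to 2.34 and 1.48 CPM) and CDC25C, the phosphatase that starts mitosis (6.09 and 6.16 to 1.21 and 0.451 CPM), fell the furthest of the list. In such bulk samples, fewer cells of a type and less RNA per cell cannot be told apart. PLK1, a mitotic kinase, and CCNB2, a mitotic cyclin, lie outside the naming rule and were chosen after their values were seen, for the CHR and CCAAT letters in their promoters, which are printed. They fell from 57.1 and 58.8 to 14.2 and 14.3 CPM and from 43.1 and 43.1 to 8.93 and 9.91 CPM.

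DNA replication fell with mitosis. Of 48 genes of replication and nucleotide synthesis, 46 were lower, 30 of them at least 2-fold, and none was higher, with a median of -1.38. CDC45, a subunit of the replicative helicase, went from 11.6 and 13.1 to 1.21 and 1.29 CPM (log2 fold change -3.30 ± 0.19, adjusted p = 2.43e-09). GINS2, another subunit of the same helicase, went from 15.1 and 13.8 to 2.13 and 1.61 CPM, the licensing factor CDC6 from 64.9 and 58 to 8.15 and 7.92 CPM, and thymidine kinase TK1 from 75.3 and 76.4 to 11.8 and 9.4 CPM. Of 31 genes of homologous recombination and the Fanconi pathway, which mend breaks and crosslinks at replication forks, 24 were lower and 2 higher, with a median of -1.52. FANCB of the Fanconi core complex (-2.67 ± 0.28), FANCD2 (-2.47 ± 0.15) and RMI2, which helps dissolve joined DNA molecules (-2.37 ± 0.11) were among those that fell most, while RAD51D (0.48 ± 0.09) and the nuclease scaffold SLX4 (0.44 ± 0.13, lost with DESeq2 and without the first combination library) rose.

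Promoters of a few of these genes are shown because mitotic genes share 2 short motifs, the cell cycle homology region (CHR, letters TTTGAA) and the CCAAT box bound by NF-Y, while replication genes often carry an E2F site (TTTCCCGC, TTTGGCGC or TTTCGCGC). Each line gives the 200 bases before the RefSeq start on GRCh38.p14, 5′ to 3′ on the gene's strand, with matches in capitals on either strand, so that a motif on the other strand appears as its reverse complement.
MKI67, chr10:128126424-128126623, minus strand: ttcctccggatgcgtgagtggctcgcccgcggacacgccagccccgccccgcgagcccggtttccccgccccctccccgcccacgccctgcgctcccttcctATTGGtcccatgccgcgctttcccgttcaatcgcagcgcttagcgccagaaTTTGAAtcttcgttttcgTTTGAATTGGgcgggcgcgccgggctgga
PLK1, chr16:23678689-23678888, plus strand: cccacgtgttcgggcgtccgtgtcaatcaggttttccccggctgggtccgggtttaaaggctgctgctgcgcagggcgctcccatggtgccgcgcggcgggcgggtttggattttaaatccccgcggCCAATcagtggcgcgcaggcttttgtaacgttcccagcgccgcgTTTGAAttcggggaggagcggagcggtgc
CCNB2, chr15:59104946-59105145, plus strand: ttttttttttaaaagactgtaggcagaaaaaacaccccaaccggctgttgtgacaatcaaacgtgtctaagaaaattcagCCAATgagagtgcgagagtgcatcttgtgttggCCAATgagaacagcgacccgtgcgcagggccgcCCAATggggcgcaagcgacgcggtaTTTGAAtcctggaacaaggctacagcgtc
GINS2, chr16:85688955-85689154, minus strand: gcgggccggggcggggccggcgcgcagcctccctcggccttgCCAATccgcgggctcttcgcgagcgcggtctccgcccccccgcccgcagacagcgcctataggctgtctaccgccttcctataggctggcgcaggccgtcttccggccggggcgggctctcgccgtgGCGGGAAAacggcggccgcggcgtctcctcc

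In PLK1 and CCNB2 the CHR began 29 bases before the start, with a CCAAT box at 73 bases in PLK1 and at 54, 87 and 120 in CCNB2. MKI67 had CHR letters at 47 and 29 bases, and the second runs into an ATTGG, so that the capitals there mark 2 overlapping motifs. GINS2 had an E2F site at 31 bases and a CCAAT box at 158. In the window from 250 bases before to 50 after the start, CHR letters were found in 70.4% of the 54 mitotic genes with a promoter in the table, CCAAT in 70.4% and both in 53.7%, against 9.98%, 36.3% and 4.15% of 11517 genes tested and 15.4%, 35.7% and 6.08% of all 27305 promoters. At the RefSeq start used, none of the motifs searched was found for CENPI and CDC25C, and only CCAAT for NCAPH. Other starts of these genes were not searched. The 200 bases before the start used for CENPI, chrX:101100858-101101057, lie inside the gene, which begins at 101098188 in GENCODE. E2F letters were in 51.2% of 41 replication genes against 4.39% of genes tested and 2.79% of all promoters. Of the 735 genes that fell at least 2-fold and had a promoter, 20.1% held CHR letters, 46.1% CCAAT and 7.07% E2F. In the 1554 that rose at least 2-fold these shares were 10.7%, 31.3% and 2.25%. With only the 100 bases before the start, CHR letters were in 37.0% of mitotic genes and 2.53% of genes tested, and E2F letters in 26.8% of replication genes and 1.44% of genes tested. A match is a description of the letters, not of a bound factor.

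Of 13 genes of the RB family and E2F factors, 8 fell and none rose. E2F2, an activator of S phase genes, went from 8.24 and 7.87 to 0.993 and 1.09 CPM (log2 fold change -2.93 ± 0.20, adjusted p = 9.8e-09), E2F1 from 22.9 and 24.6 to 8.15 and 7.85 CPM (-1.57 ± 0.11), and the pocket protein RBL1 (p107) from 15.5 and 15.4 to 2.2 and 4.51 CPM (-2.18 ± 0.19). E2F8, a repressor induced in S phase, was low and fell by 1.86 on the log2 scale. RB1 itself was at 46.2 and 48.4 against 41.5 and 43.7 CPM and did not pass (adjusted p = 0.174), although it did with TMM factors.

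Among the G1 cyclins and their kinases the directions were mixed. CCND1, cyclin D1, the partner of the kinases that palbociclib blocks, rose from 646 and 638 to 1474 and 1522 CPM (log2 fold change 1.22 ± 0.05, adjusted p = 8.88e-11), and CCND2 from 5 counts in the pair to 63 (ratio 12.7, interval 5.16 to 40.5), while CCND3 fell slightly, from 277 and 273 to 231 and 232 CPM. CCNE1, a cyclin of CDK2, rose (0.37 ± 0.09), and CCNE2 fell (-1.48 ± 0.37), a call lost without the second combination library. CDK2 was at 29.5 and 28.1 against 19.7 and 19.9 CPM (log2 fold change -0.54 ± 0.08, adjusted p = 7.23e-05), CDK4 at 168 and 168 against 148 and 136 CPM, also lost without the second combination library, and CDK6 did not pass (0.19 ± 0.09, adjusted p = 0.0764). CDC25A, the phosphatase that activates CDK2, fell (-0.85 ± 0.16).

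The CDK inhibitor CDKN1A (p21), a p53 target and mediator of arrest at chr6:36676460-36687337, had 56 and 54.3 CPM with palbociclib and 683 and 666 CPM with the combination (log2 fold change 3.61 ± 0.07, adjusted p = 1.91e-14). The lowest combination library lay far above the highest palbociclib library. CDKN2A (p16) and CDKN2B (p15) had 0 counts in all 4 libraries, which allows a level of up to 3 counts in each. The study describes A549 cells as p16 null. CDKN2C (p18), an inhibitor of CDK4 and CDK6, fell from 43.8 and 40.8 to 9.5 and 8.24 CPM (-2.25 ± 0.12), CDKN1B (p27) from 50.3 and 44.7 to 24.7 and 25.2 CPM (-0.93 ± 0.08), and CDKN1C (p57) rose at a low level, from 0.445 and 0.366 to 1.91 and 2.38 CPM.

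Of 22 lamin and chromatin genes followed in senescence, 15 fell and 3 rose. LMNB1, lamin B1, whose loss is a common sign of senescence, fell from 38.4 and 34.6 to 9.64 and 8.56 CPM (log2 fold change -2.004 ± 0.10, adjusted p = 5.48e-10). The lamin B receptor LBR fell from 141 and 142 to 45.5 and 42.5 CPM. HMGB2, a chromatin protein lost in senescent cells, fell from 39.2 and 35.9 to 7.66 and 7.79 CPM. H2AX, the histone variant whose phosphorylated form marks DNA breaks, fell from 27.7 and 24.9 to 17.3 and 17.2 CPM. Transcript counts do not show that phosphorylation. HMGA2, an architectural protein of senescent heterochromatin, rose from 19.3 and 19 to 66.8 and 69.3 CPM (1.83 ± 0.08), and the macroH2A gene MACROH2A2 from 11.4 and 9.88 to 25 and 20.3 CPM. ASF1B, given above, fell the furthest of the list. Its promoter is shown because it carries the same pair of letters as the mitotic genes, CHR at 27 and CCAAT at 53 and 140 bases before the start.
ASF1B, chr19:14136590-14136789, minus strand: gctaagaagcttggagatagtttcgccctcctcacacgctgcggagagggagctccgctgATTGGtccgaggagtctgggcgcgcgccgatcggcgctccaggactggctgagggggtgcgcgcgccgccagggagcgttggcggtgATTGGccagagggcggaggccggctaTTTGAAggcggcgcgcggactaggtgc

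Most of the replication-dependent histone genes that passed the filter were higher. Their messages normally end in a stem-loop rather than a poly(A) tail, and only 20 of 67 passed the filter on low counts, so the 16 that were higher and 1 that was lower are counts over the members that passed, several of them at a few counts with palbociclib. With no filter 55 could be tested, 16 were higher and the median was 0.0094 against 1.17. With DESeq2 10 were higher, and with a mean of at least 50 counts 8 of 8 were. H2BC21 stood at 1.86 and 2.5 CPM with palbociclib and 6.95 and 7.85 CPM with the combination (log2 fold change 1.75 ± 0.19, adjusted p = 1.78e-06). H2AC13 held 6 counts in the pair against 23, a ratio of 3.86 with an interval of 1.53 to 11.6. H4C5 and H2BC18 were as low (0.148 and 0.366 against 0.993 and 0.644 CPM, and 0.0742 and 0.366 against 0.709 and 0.708 CPM), and H2AC11 fell (-1.31 ± 0.41). The calls of H2AC13, H4C5, H2BC18 and H2AC11 were lost in some alternatives, and reads shared among near-identical histone genes were set aside before counting.

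**Figure D3:**
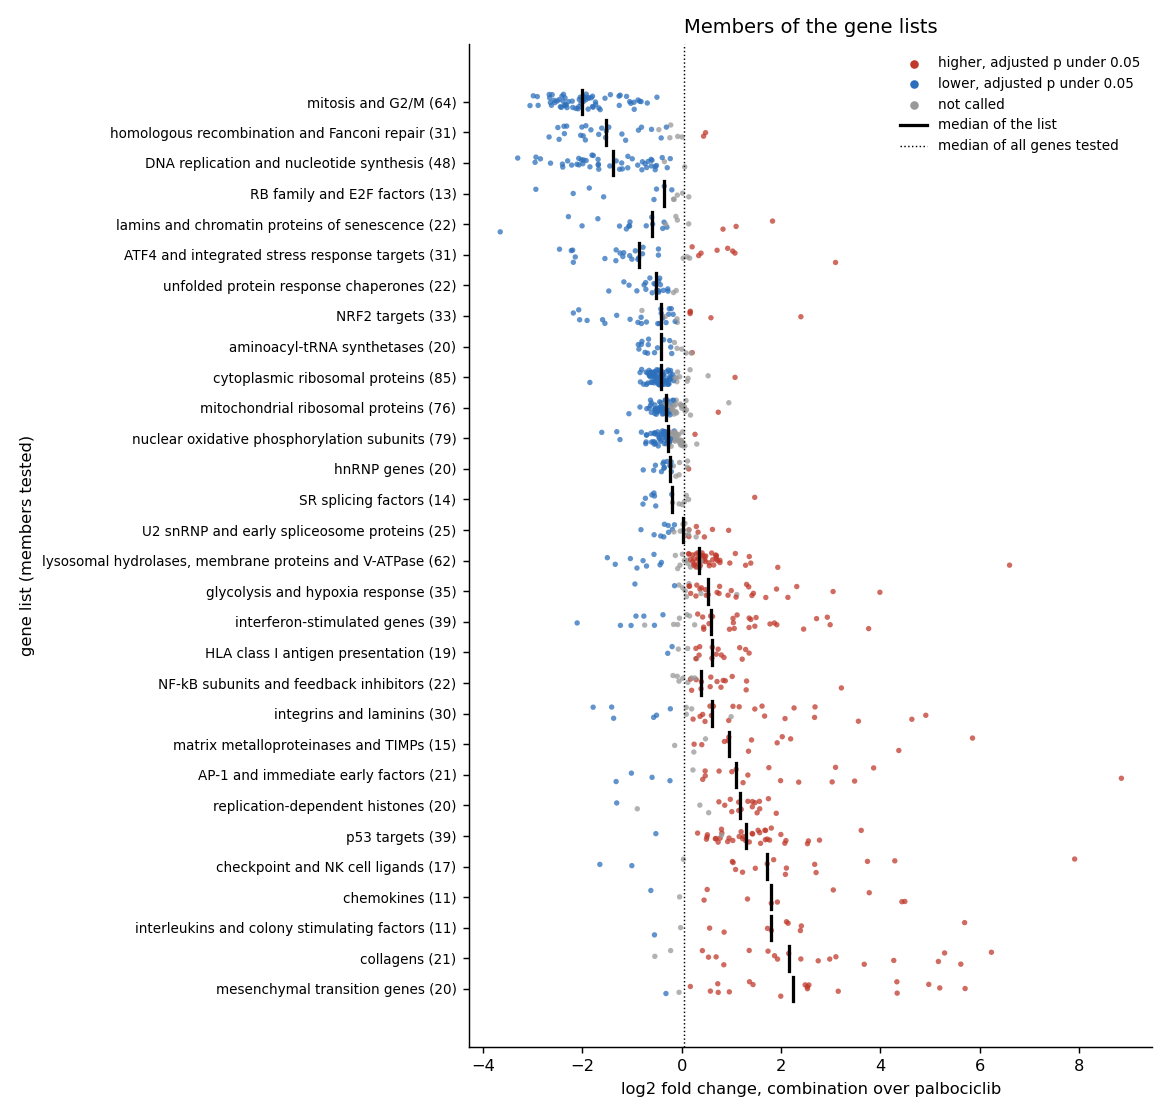
Log2 fold change of P+I over PD (x axis) for the members of 30 gene lists (y axis, with the number of members tested in brackets). Each point is 1 gene, red if higher and blue if lower at an adjusted p under 0.05, bars are list medians and the dotted line is the median of all genes, and the medians run from -2.003 for mitosis and G2/M to 2.24 for mesenchymal transition genes.

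Transcripts of splicing factors moved little in comparison. Of 14 SR proteins, which bind exonic enhancers, 7 fell and 1 rose, with a median of -0.19. SRSF2 went from 165 and 187 to 109 and 104 CPM, SRSF3 from 185 and 178 to 119.5 and 120.1 CPM, SRSF7 from 88.4 and 92.9 to 59.1 and 64 CPM and the SR-like TRA2B from 131 and 136 to 78.4 and 77.4 CPM, the largest fall of the list (log2 fold change -0.78 ± 0.06, adjusted p = 2.25e-08). SRSF12 rose at a low level, from 1.63 and 1.46 to 4.47 and 4.12 CPM. Of 20 hnRNP genes, whose proteins coat pre-mRNA, 13 fell and 1 rose. HNRNPA1 fell from 733 and 702 to 415 and 424 CPM (log2 fold change -0.77 ± 0.06, adjusted p = 1.98e-08), followed by HNRNPAB (-0.56 ± 0.06), HNRNPF (-0.53 ± 0.06) and HNRNPH2 (-0.41 ± 0.06), whereas HNRNPA3 was called higher by only 0.14 ± 0.06, a call that did not hold in 8 of 10 alternatives. Of the 25 U2 snRNP and early spliceosome genes tested, the complex RBM39 works beside, 9 fell and 7 rose, with a median of 0.03 whose sign changed in 3 alternatives. SF3B6 (-0.82 ± 0.08) and PHF5A (-0.55 ± 0.10), small subunits of SF3B, fell, while PRPF8, the core of the catalytic spliceosome (0.62 ± 0.06), and SNRNP70 of the U1 particle (0.95 ± 0.16) rose. Of 25 small nucleolar RNA host genes tested, 5 fell and 3 rose.

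Genes of the p53 response rose as a group. Of 39 targets, 37 were higher (33.5% of all genes were), 25 at least 2-fold, and 1 was lower, with a median of 1.29. After CDKN1A, the largest rises were in SPATA18, which acts in mitochondrial quality control (4.82 and 4.64 to 32 and 32.7 CPM, 2.77 ± 0.12), the death receptor FAS (10.5 and 12.9 to 67.9 and 70.2 CPM, 2.55 ± 0.10) and the decoy TRAIL receptor TNFRSF10C (2.23 and 1.65 to 11.2 and 11 CPM, 2.53 ± 0.20). PMAIP1 (NOXA) fell, from 50.6 and 44.7 to 32.4 and 33.9 CPM (log2 fold change -0.52 ± 0.09, adjusted p = 0.000246). FAS overlaps ACTA2 on the other strand.

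Targets of the stress factor ATF4 mostly fell. Of 31 ATF4 targets tested, 20 were lower and 8 higher, with a median of -0.86. PHGDH, the first enzyme of serine synthesis, went from 234 and 234 to 44.5 and 40.7 CPM (log2 fold change -2.46 ± 0.07, adjusted p = 1.28e-12). The mitochondrial PEP carboxykinase PCK2 went from 87.3 and 86.6 to 19 and 18.3 CPM, the transsulfuration enzyme CBS from 7.94 and 7.26 to 1.42 and 1.87 CPM and the cystine carrier SLC7A11 from 534 and 516 to 117 and 115 CPM. Against the rest of the list, the transcription factor ATF3 rose from 6.83 and 6.65 to 55.8 and 59.5 CPM (log2 fold change 3.10 ± 0.11, adjusted p = 8.1e-12) and the glycoprotein hormone STC2 from 47.2 and 50.03 to 101 and 104 CPM. The folding machinery of the endoplasmic reticulum was also lower, with 20 of 22 unfolded protein response genes down, none up and a median of -0.51. XBP1, the transcription factor of that response, fell from 242 and 247 to 89.6 and 87.7 CPM (log2 fold change -1.47 ± 0.06, adjusted p = 3e-11), EDEM1 and HERPUD1, which clear misfolded proteins, by 1.16 and 1.06 on the log2 scale, and the chaperone HYOU1 from 258 and 251 to 138 and 135 CPM. CCAAT letters were in 85.7% of the 21 promoters of this list and in 36.3% of those of genes tested.

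A549 carries high levels of antioxidant genes under NRF2, and most of them dropped. Of 33 NRF2 targets, 24 fell and 5 rose, with a median of -0.41. SLC7A11, given above with the ATF4 targets, is also in this list and fell the furthest of it. The aldehyde dehydrogenase ALDH3A1 was at 9062 and 9266 CPM with palbociclib and at 2215 and 2148 CPM with the combination (log2 fold change -2.07 ± 0.07, adjusted p = 1.09e-11). The aldo-keto reductase AKR1B10 fell from 6498 and 6398 to 1554 and 1555 CPM and the glutathione peroxidase GPX2 from 1470.1 and 1368 to 387 and 372 CPM. The libraries of each group were close together in these 3 genes, far from those of the other group. HMOX1, heme oxygenase 1, rose from 17.4 and 14.8 to 89.6 and 79.6 CPM (2.40 ± 0.10), and the ferritin heavy chain FTH1 from 2786 and 2573 to 4072 and 3993 CPM. Of 27 heat shock and chaperonin genes, 9 rose and 9 fell. The small heat shock proteins CRYAB (16.9 and 15.9 to 69.7 and 67.6 CPM) and HSPB8 (47.3 and 44.8 to 140.2 and 136 CPM) rose, and HSPA1A (-0.40 ± 0.08) and HSPA1B (-0.43 ± 0.10), near-identical copies of the inducible HSP70 gene whose shared reads were set aside, fell.

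Secreted factors of the senescent type were mostly higher. Only 11 of 20 chemokines passed the filter, and of these 9 were higher and 1 lower. With a mean of at least 50 counts 8 were left, 6 of them higher, and their median of 0.92 was smaller than that of the 11. CCL2, which attracts monocytes, measured 2.004 and 2.32 CPM with palbociclib and 48.1 and 50.01 CPM with the combination (log2 fold change 4.49 ± 0.13, adjusted p = 1.85e-12). CXCL6, which attracts neutrophils, rose from 1.04 and 0.915 to 13.8 and 13.1 CPM, the eotaxin CCL26 from 1.11 and 0.671 to 7.66 and 6.95 CPM, and CXCL12 from 2 counts in the pair to 48 (ratio 24.2, interval 6.34 to 205). CXCL5, the closest relative of CXCL6, went the other way, from 483 and 479 down to 308 and 318 CPM (log2 fold change -0.62 ± 0.07, adjusted p = 1.45e-06). Their promoters are set side by side because both hold the same NF-kB letters (GGAATTTCC), CXCL6 at 89 and CXCL5 at 90 bases before the start. CXCL6 also holds CCAAT, which is in capitals too.
CXCL6, chr4:73836478-73836677, plus strand: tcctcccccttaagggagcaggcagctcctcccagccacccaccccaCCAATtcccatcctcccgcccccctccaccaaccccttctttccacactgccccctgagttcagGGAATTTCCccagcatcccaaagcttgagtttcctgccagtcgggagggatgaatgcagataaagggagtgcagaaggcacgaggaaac
CXCL5, chr4:73998678-73998877, minus strand: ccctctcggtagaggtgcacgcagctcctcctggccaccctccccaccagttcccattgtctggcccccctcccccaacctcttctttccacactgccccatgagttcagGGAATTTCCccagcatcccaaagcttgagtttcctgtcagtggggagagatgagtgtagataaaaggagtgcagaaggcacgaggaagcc

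NF-kB letters (GGAATTTCC, GGACTTTCC, GGGATTTCC or GGAAATTCC) were in 66.7% of 9 chemokine promoters and in 1.19% of those of genes tested. The pair shows the same letters in a gene that rose and in a gene that fell. Of 22 NF-kB subunits and feedback genes, 15 rose and none fell, with a median of 0.39. TNFAIP3 (A20), a feedback inhibitor, rose from 1.71 and 1.89 to 16.7 and 17 CPM (log2 fold change 3.21 ± 0.16, adjusted p = 2.86e-10), and the subunits NFKB2 (p100) from 34.4 and 36.4 to 88.9 and 86.4 CPM and RELB from 8.09 and 8.18 to 21.8 and 18.3 CPM belong to the alternative branch of the pathway. TNIP1, which works with TNFAIP3, rose from 137 and 127 to 268 and 265 CPM.

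Of 20 interleukins and colony stimulating factors 11 passed the filter, with 9 higher and 1 lower. With a mean of at least 50 counts 6 were left, 4 of them higher, and the median was 0.71 against 1.81. IL32, an inflammatory cytokine, rose from 0.297 and 0.427 to 19.6 and 19.3 CPM (log2 fold change 5.69 ± 0.24, adjusted p = 6.56e-11). The alarmin IL33 (0.89 and 0.732 to 3.76 and 4.83 CPM), the fibrosis cytokine IL11 (0.297 and 1.04 to 2.98 and 4.38 CPM) and IL12A (0.519 and 0.366 to 1.7 and 2.19 CPM) rose at low levels, and IL15, which sustains NK cells, fell from 16.7 and 16.5 to 11.9 and 10.8 CPM. All 5 plasminogen activator and inhibitor genes tested were at least 2-fold higher, among them the urokinase PLAU (308 and 305 to 631 and 607 CPM), its receptor PLAUR (27.2 and 25.9 to 94.7 and 84.3 CPM), tissue activator PLAT (2.23 ± 0.19) and the inhibitor SERPINE2 (207 and 206 to 721 and 736 CPM). Of 15 matrix metalloproteinase and TIMP genes tested, 12 rose and none fell. TIMP3, an inhibitor held in the matrix, rose from 0.223 and 0.244 to 13.5 and 14.5 CPM (5.85 ± 0.27), the membrane protease MMP24 from 39.1 and 42.3 to 189.7 and 183 CPM, and MMP10 from 2 counts to 46 in the pairs (ratio 23.2, interval 6.06 to 197).

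Growth factor carriers and ligands were higher too. Of the 7 insulin-like growth factor binding proteins 6 rose, led by IGFBP7 from 7.79 and 7.44 to 76.4 and 67.8 CPM (log2 fold change 3.24 ± 0.10, adjusted p = 4.2e-12) and IGFBP5 from 23.5 and 20.01 to 54.9 and 56.5 CPM, whereas IGFBP3 did not pass, at 625 and 586 against 601 and 597 CPM (adjusted p = 0.849). Of 17 TGF-beta family genes tested, 12 rose and 1 fell. The BMP antagonist GREM1 (4.25 ± 0.33), the latent TGF-beta binding protein LTBP2 (21.3 and 20.4 to 155 and 165 CPM) and BMP2 (1.56 and 1.71 to 12.6 and 11.6 CPM) rose, and BMP6 fell from 24.9 and 24.1 to 11.3 and 10.7 CPM. Of 16 angiogenic and EGF family factors, 9 rose and 3 fell. PDGFB, a growth factor for pericytes and fibroblasts, held 3 counts against 256 (ratio 86.0, interval 29.1 to 420), ANGPTL4, an inhibitor of lipoprotein lipase, rose from 4.01 and 2.44 to 38 and 40.03 CPM, and ANGPT1 fell from 4.6 and 3.78 to 1.91 and 1.42 CPM.

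Immune recognition genes rose unevenly. Of 39 interferon-stimulated genes tested, 25 rose and 7 fell. TRIM22, an antiviral ubiquitin ligase that is also a p53 target, rose from 4.97 and 4.52 to 65.9 and 62.6 CPM (log2 fold change 3.76 ± 0.13, adjusted p = 9.14e-12), the GTPase GBP1 from 4.68 and 4.76 to 38.2 and 36.8 CPM, the growth suppressor SAMD9L from 6.31 and 8.12 to 54.3 and 56.7 CPM and IFI27 from 1.78 and 1.65 to 11.1 and 11.5 CPM. Other members of the list went down: IFITM1, which blocks virus entry, from 4.38 and 3.29 to 1.21 and 0.579 CPM, and the exonuclease ISG20 from 23.3 and 22.8 to 11.4 and 8.3 CPM. Of 19 genes of class I antigen presentation, 14 rose and 2 fell. HLA-B (22.2 and 19.95 to 54.2 and 53.5 CPM, 1.36 ± 0.10), HLA-C (62.9 and 59.9 to 154 and 146 CPM, 1.29 ± 0.09), the peptide transporter TAP1 (26.1 and 25.6 to 62.6 and 57.7 CPM) and the trimming peptidase ERAP2 (3.78 and 4.45 to 8.15 and 10.4 CPM) were among those that rose most, and the proteasome activator PSME1 (-0.28 ± 0.06) was 1 of those that fell. Near-identical HLA genes share reads, so these levels are uncertain.

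Of 17 checkpoint and NK cell ligands, 14 rose at least 2-fold and 2 fell at least 2-fold, and of the 11 with a mean of at least 50 counts 8 rose. CD274 (PD-L1), which restrains T cells, rose from 0.742 and 0.488 to 4.11 and 3.86 CPM (log2 fold change 2.70 ± 0.29, adjusted p = 1.74e-06). PDCD1LG2 (PD-L2) had no count with palbociclib and 60 in the combination pair, at least 20.2-fold higher when the palbociclib pair is set to 3 counts. VTCN1 (B7-H4) rose from 1.86 and 1.28 to 21.8 and 19.6 CPM, and RAET1L, a ligand of the NK receptor NKG2D, from 1 count to 24 (ratio 24.2, interval 3.94 to 994). ULBP1, another NKG2D ligand, fell from 3.34 and 3.05 to 1.63 and 1.54 CPM, and the TNF family ligand TNFSF15 from 78.4 and 83 to 24.2 and 27.4 CPM (-1.65 ± 0.08). Of 13 complement genes tested, 8 rose and 3 fell, among them CD59, which blocks the membrane attack complex, upward from 151 and 147 to 386 and 377 CPM, and the components C5 (111 and 116 to 59.2 and 57.5 CPM) and CFD (33.2 and 28.3 to 17.8 and 16.1 CPM) downward.

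Collagens were higher in most of the members that passed the filter. Of 29 collagens 21 passed the filter, 19 of them higher and none lower, with a median of 2.15. After COL5A1, COL17A1, the transmembrane collagen of hemidesmosomes, rose from 1.41 and 1.16 to 50.4 and 49.9 CPM (log2 fold change 5.29 ± 0.14, adjusted p = 6.44e-13), COL6A2 from 0.0742 and 0.488 to 10.6 and 11.6 CPM and COL1A1 from 3.49 and 4.09 to 73.7 and 73.5 CPM (4.27 ± 0.11). COL13A1 had no count with palbociclib and 12 in the combination pair, at least 4.03-fold higher (the list median was 2.01 with this gene at its bound), with a call that was lost without the first combination library. Of 30 integrins and laminins, 20 rose and 6 fell. The collagen receptor ITGA11 rose from 3.71 and 3.84 to 93 and 95 CPM (log2 fold change 4.63 ± 0.11, adjusted p = 3e-13) and ITGB3, which binds vitronectin and fibrinogen, from 1.34 and 1.22 to 15.8 and 14.4 CPM, while ITGB2, the leukocyte integrin chain, fell from 17.1 and 16.2 to 5.74 and 3.99 CPM.

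Of 20 mesenchymal transition genes tested, 18 rose and 1 fell, with a median of 2.24. Of the 13 with a mean of at least 50 counts 11 rose, with a median of 1.36. The actin-binding protein TAGLN (SM22) rose from 4.6 and 4.39 to 238 and 231 CPM (log2 fold change 5.70 ± 0.12, adjusted p = 1.34e-13), the matrix protein TNC from 1.56 and 1.34 to 50.8 and 55.1 CPM, the transcription factor SNAI2 (Slug) from 0.223 and 0.305 to 8.3 and 9.01 CPM and SPARC from 0 and 0.854 to 10.8 and 8.43 CPM. SPARC was uneven between the palbociclib libraries. S100A4 fell slightly, from 1009 and 998 to 845 and 768 CPM. Epithelial junction genes did not move together, with 11 of 25 higher and 5 lower. The desmosomal cadherins DSC2 (16.9 and 21.4 to 54.8 and 62.2 CPM) and DSG2 (214 and 211 to 554 and 589 CPM) and the protease inhibitor SPINT1 (3.64 and 2.81 to 12.7 and 11.9 CPM) rose, and the pore-forming claudin CLDN2 (2088 and 2037 to 613 and 606 CPM, -1.76 ± 0.05) and the scaffold TJP3 (18.8 and 20.01 to 8.01 and 6.63 CPM) fell. CDH1, E-cadherin, was at 144 and 136 against 130.1 and 126 CPM and did not pass (adjusted p = 0.0682), although it did in 3 of 10 alternatives. Of 6 simple epithelial markers, 5 rose, KRT7 from 1140.4 and 1168 to 3285 and 3173 CPM and KRT19 from 257 and 255 to 676 and 647 CPM the most, with KRT8 (0.50 ± 0.07), KRT18 (0.18 ± 0.06, lost in 3 alternatives) and EPCAM (0.39 ± 0.11, lost in 2). KRT8 and KRT18 overlap each other on opposite strands. Of 15 tubulins tested, 8 rose and 2 fell, with TUBA1A from 29.7 and 29.5 to 226 and 222 CPM, TUBA4A from 64.7 and 61.1 to 282 and 271 CPM and TUBB6 from 18.8 and 18.7 to 76.6 and 73.4 CPM, another family whose members share sequence.

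Fibroblast and blood markers are given here beside these genes. LUM, the proteoglycan lumican, held 4 counts with palbociclib and 264 with the combination (ratio 66.5, interval 25.7 to 246), and CD68, a macrophage lysosomal protein, 0 against 25 (at least 8.4-fold higher). The blood markers CD14 and LYZ held more counts and changed little. CD14 had 79 and 89 counts with palbociclib and 97 and 103 with the combination, and LYZ 43 and 44 against 49 and 46. Endothelial genes went both ways. PECAM1 went from 34 counts to 2, 16.9-fold lower (4.33 to 145). VWF held 1 and 0 counts with palbociclib and 15 and 4 with the combination, CDH5 0 and 0 against 3 and 4, and KDR 3 and 0 against 4 and 2. Of the other fibroblast markers, DCN, PDGFRA, PDGFRB and COL3A1 stayed at 8 counts or fewer in every library.

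Genes of cell death rose more often than they fell. Of 17 BCL2 family genes tested, 10 rose and 2 fell, with a median of 0.24. BAX, the pore-former of mitochondrial death and a p53 target, rose from 72.4 and 77.1 to 241 and 240.0 CPM (log2 fold change 1.68 ± 0.07, adjusted p = 9.9e-11), the BH3-only genes BMF from 1.48 and 0.61 to 4.11 and 4.31 CPM and HRK from 2 counts to 70 (ratio 35.3, interval 9.41 to 297). Of the anti-apoptotic targets of the senolytic drug navitoclax, BCL2L1 (BCL-xL) did not pass, at 367 and 365 against 378 and 367 CPM (adjusted p = 0.699), BCL2L2 (BCL-W) was higher by 0.22 ± 0.08, a call lost in 7 alternatives, and BCL2 was near the floor at 0.445 and 0.183 against 0.142 and 0.451 CPM. The log2 standard errors of these 3 genes were 0.05, 0.08 and 0.84. BCL2L12 fell from 12.2 and 11.8 to 6.67 and 6.05 CPM. Of 18 death receptor pathway genes, 12 rose and 1 fell. The death receptor TNFRSF25 rose from 0.742 and 1.34 to 8.23 and 8.82 CPM (2.99 ± 0.29), while TNFRSF1A, the main TNF receptor, fell from 585 and 565 to 394 and 401 CPM.

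Many genes of translation and respiration fell by small amounts. Of 85 cytoplasmic ribosomal protein genes tested, 75 fell and 1 rose, with a median of -0.42. RPS16 went from 1886 and 1814 to 1090.2 and 991 CPM (log2 fold change -0.83 ± 0.06, adjusted p = 1.15e-08) and RPL10A from 506 and 491 to 291 and 267 CPM, while the ribosomal paralogues RPL22L1 (41.8 and 38.7 to 11.6 and 10.7 CPM) and RPL39L (12.9 and 12.3 to 8.58 and 5.92 CPM) also fell. The 1 gene that rose was RPS27L, a p53 target, from 121 and 117 to 264 and 236 CPM. Mitochondrial ribosomal proteins fell in 49 of 76 (1 rose, median -0.32), MRPL16 the furthest (41.3 and 40.5 to 20.6 and 18.7 CPM), and nuclear subunits of oxidative phosphorylation in 50 of 79 (1 rose, median -0.28). In the latter, the complex I subunits NDUFB8 (-1.61 ± 0.13) and NDUFS1 (-1.24 ± 0.07) and the ATP synthase subunit ATP5MC1 (-1.30 ± 0.07) fell most. Of the 13 messages encoded in mitochondrial DNA only 3 passed, MT-ND6 lower (-0.44 ± 0.14), MT-CO2 lower (-0.40 ± 0.12) and MT-ND1 higher with overlapping libraries (0.29 ± 0.12), and these calls were lost in 3, 2 and 6 of 10 alternatives. Aminoacyl-tRNA synthetases, which charge tRNAs, fell in 14 of 20 (1 rose), led by QARS1 (211 and 214 to 118 and 114 CPM) and IARS1 (336 and 327 to 184 and 181 CPM), with RARS1 higher by 0.21 ± 0.05, a call lost with TMM factors and with DESeq2. Of 37 proteasome subunits tested, 16 fell and 4 rose, and 7 fell without the second combination library.

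Lysosomal genes rose in 42 of 62 and fell in 9, with a median of 0.34. GLB1, the lysosomal β-galactosidase behind the usual senescence stain, was at 172 and 162 against 186 and 183 CPM (log2 fold change 0.15 ± 0.06, adjusted p = 0.0349), a small rise that was lost in 6 of 10 alternatives. The protease CTSK (1.34 and 2.5 to 7.87 and 7.21 CPM) and the sterol carrier NPC2 (68.3 and 67.6 to 183 and 166 CPM) rose more, and ATP6V0D2, a proton pump subunit, had 0 counts against 24, at least 8.06-fold higher. The hydrolases GALNS (21.6 and 25.1 to 9.01 and 7.66 CPM) and GUSB (50.1 and 53.2 to 19.996 and 20.9 CPM) fell. Of 35 glycolysis and hypoxia genes, 26 rose and 2 fell. PFKFB4, which tunes glycolytic flux, rose from 1.71 and 1.77 to 29.6 and 25.9 CPM (log2 fold change 3.99 ± 0.16, adjusted p = 3.11e-11), the vasodilator ADM from 6.38 and 6.83 to 56.1 and 53.5 CPM, the glucose transporter SLC2A3 from 4.68 and 4.76 to 18 and 23.5 CPM and hexokinase HK2 from 0.965 and 0.671 to 3.76 and 4.31 CPM. CA12, a carbonic anhydrase, fell from 3694 and 3526 to 1850.2 and 1912 CPM. Cholesterol genes split, with 8 of 25 higher and 9 lower, and so did the 18 fatty acid genes tested, with 9 and 7.

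AP-1 and immediate early factors rose in 16 of 21 tested and fell in 4, with a median of 1.10. MAF, ATF3 and FOSB (0.0742 and 0.305 to 2.69 and 3.35 CPM) were among the largest rises, and FOS fell from 4.01 and 3.29 to 1.28 and 1.61 CPM. AP-1 letters (TGACTCA or TGAGTCA) were in 6.24% of promoters of genes at least 2-fold higher, 2.72% of those at least 2-fold lower and 3.31% of genes tested. Promoters of 2 of the largest rises are shown, CPA4 for its pair of AP-1 matches at 48 and 15 bases before the start on either side of a TATA box (TTTATA and TATAAA, which overlap), and MAF for its cAMP response element (CRE, TGACGTCA) at 45 and TATA box at 30 bases. CCAAT letters, read from the other strand as ATTGG, are in capitals too.
CPA4, chr7:130292961-130293160, plus strand: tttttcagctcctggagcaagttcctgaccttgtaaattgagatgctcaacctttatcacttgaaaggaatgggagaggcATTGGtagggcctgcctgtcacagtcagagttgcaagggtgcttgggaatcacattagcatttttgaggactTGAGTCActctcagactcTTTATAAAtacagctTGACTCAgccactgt
MAF, chr16:79600738-79600937, minus strand: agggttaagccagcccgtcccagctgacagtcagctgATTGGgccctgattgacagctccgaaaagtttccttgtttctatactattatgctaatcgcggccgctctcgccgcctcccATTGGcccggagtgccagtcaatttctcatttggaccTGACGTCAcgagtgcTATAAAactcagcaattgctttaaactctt

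CRE letters were in 2.25% of promoters of genes at least 2-fold higher, 3.81% of those at least 2-fold lower and 3.21% of genes tested, and TATA letters (TATAAA) in 9.59%, 9.25% and 6.06% of the same sets. MAPK feedback genes, which report signalling through ERK, fell in 11 of 18 tested and rose in 5. The ETS factors ETV4 (123 and 131 to 36.5 and 35.4 CPM) and ETV1 (44.9 and 39.8 to 22.1 and 22.8 CPM) and the ERK phosphatase DUSP6 (59.1 and 60.2 to 35 and 33.6 CPM) fell, and the ephrin receptor EPHA4 rose from 2.3 and 2.01 to 8.93 and 8.82 CPM. Of 22 YAP and TEAD genes, 15 rose and 3 fell, led by ANKRD1 from 4.3 and 4.94 to 69.3 and 72.3 CPM (3.93 ± 0.11).

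Small families held some of the sharper contrasts. The retinaldehyde dehydrogenase ALDH1A3 rose from 0.594 and 0.244 to 13.6 and 10.9 CPM (log2 fold change 4.89 ± 0.28, adjusted p = 1.96e-09) while 9 of 17 aldehyde dehydrogenases fell and 5 rose. Only 4 of 10 metallothioneins, which bind zinc and copper, passed the filter, of which 3 were higher and 1 was not called. With a mean of at least 50 counts 2 were left, both higher. MT2A (3.64 and 2.75 to 22 and 19.8 CPM) and MT1X (1.78 and 1.77 to 12.3 and 15.6 CPM) rose. MT1G rose from 0.0742 and 0.244 to 2.06 and 1.8 CPM, with palbociclib levels near the floor. Of 26 ABC transporters, 9 rose and 9 fell, ABCA12, a lipid transporter of the skin, from 6.6 and 7.14 up to 37.9 and 42.1 CPM and ABCC3, an exporter of conjugates, from 1350.1 and 1426 down to 477 and 475 CPM. S100A2 rose from 1.41 and 1.4 to 5.67 and 5.86 CPM among 11 S100 genes tested, of which 6 rose and 3 fell. Of 23 alveolar and airway genes 13 passed the filter, with 2 higher and 6 lower. MUC5AC, the gel-forming airway mucin, fell from 999 and 973 to 100.2 and 103 CPM (log2 fold change -3.28 ± 0.14, adjusted p = 7.26e-11) and MUC5B from 1900.2 and 1731 to 379 and 364 CPM, while the protease NAPSA (0.965 and 1.16 to 3.69 and 3.22 CPM) and LAMP3 (0.594 and 0.305 to 0.993 and 1.29 CPM, lost in some alternatives) rose at low levels.

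The 5 published senescence lists that the study used were higher in most members that passed the filter. In the Casella list 26 of 41 tested rose and 7 fell (median 0.54), in the Purcell list 27 of 34 and 5 (1.22), in the Hernandez senescence list 19 of 30 and none (0.46), in the Hernandez list of secreted factors 19 of 21 and 1 (1.73) and in the Fridman list 51 of 71 and 8 (0.59), against 33.5% higher and 26.9% lower among all genes and a median of 0.05. With a mean of at least 50 counts the 5 medians, in the same order, were 0.54, 0.93, 0.45, 0.92 and 0.61. With indisulam alone (IN against UT) 24, 23, 11, 19 and 39 members were higher, with medians of 0.44, 0.94, 0.09, 1.06 and 0.36. By the interaction 17, 12, 16, 5 and 29 members changed more upward with palbociclib present, and 4, 8, 1, 4 and 5 more downward. The Casella list was led by LINC02154 and the dynein gene DNAI3 (0.371 and 0.122 to 6.74 and 6.95 CPM), the Purcell list by IL32 and COL17A1, and the Hernandez list of secreted factors by CCL2 and MMP10. The neurotrophic factor GDNF, in the Hernandez senescence list, held 1 count against 38 (ratio 38.3, interval 6.47 to 1552). Large rises in the Fridman list included ESM1, an endothelial proteoglycan at 0 against 23 counts (at least 7.72-fold higher). LCP1, the leukocyte plastin in the Purcell list, held 4 counts against 163 (ratio 41.1, interval 15.7 to 152.5), and DIO2 of the Casella list, which activates thyroid hormone, 5 against 70 (ratio 14.1, interval 5.77 to 44.8).

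Indisulam without palbociclib (IN against UT) shares no library with the comparison above, and 4420 genes were higher (28.0%) and 2757 lower (17.5%) there. The difference between the changes was tested with an interaction term, by which 1696 genes (10.7%) changed more upward and 2281 (14.5%) more downward with palbociclib present. Of the 2316 genes at least 2-fold higher with palbociclib present, 1623 (70.08%) were also called higher with indisulam alone and 12 lower, and 650 (28.07%) had a higher interaction. Of the 1105 at least 2-fold lower, 647 (58.55%) were also lower with indisulam alone and 42 higher, and 633 (57.29%) had a lower interaction. Both sets were chosen by the P+I against PD change, which favours an interaction in the same direction. Pearson's r between the log2 fold changes was 0.75 over the 15780 genes, a description only, since genes measured in the same libraries are no replicates.

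The gene groups differed in how they compared. Mitosis genes had a median of -2.003 with palbociclib present and -0.06 without, with 20 of 64 lower and 11 higher under indisulam alone, and 64 of 64 had a lower interaction (14.5% of all genes). Replication genes had medians of -1.38 and 0.01, and 45 of 48 had a lower interaction. MKI67 was at 172 and 182 CPM in untreated cells and 138 and 147 CPM with indisulam alone, against 123 and 107 CPM with palbociclib and 29.99 and 29.3 CPM with both drugs. The p53 targets, in contrast, had medians of 1.29 and 1.27, with a higher interaction in 9 of 39 and a lower one in 5, and CDKN1A went from 39.2 and 43.7 to 377 and 383 CPM without palbociclib. CCNH went from 22.1 and 24.1 to 9.33 and 10.4 CPM, and RBM39 from 149.5 and 135 to 244 and 263 CPM. Cytoplasmic ribosomal proteins had medians of -0.42 and -0.31, ATF4 targets -0.86 and -0.48 and collagens 2.15 and 1.49. The 20 of 67 replication-dependent histones that passed the filter had medians of 1.17 and -0.02, and 11 had a higher interaction (10.7% of all genes). Several of these 20 were at a few counts with palbociclib, and with no filter the P+I against PD median over 55 histones was 0.0094. The histone values thus describe only the members that passed.

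**Figure D4:**
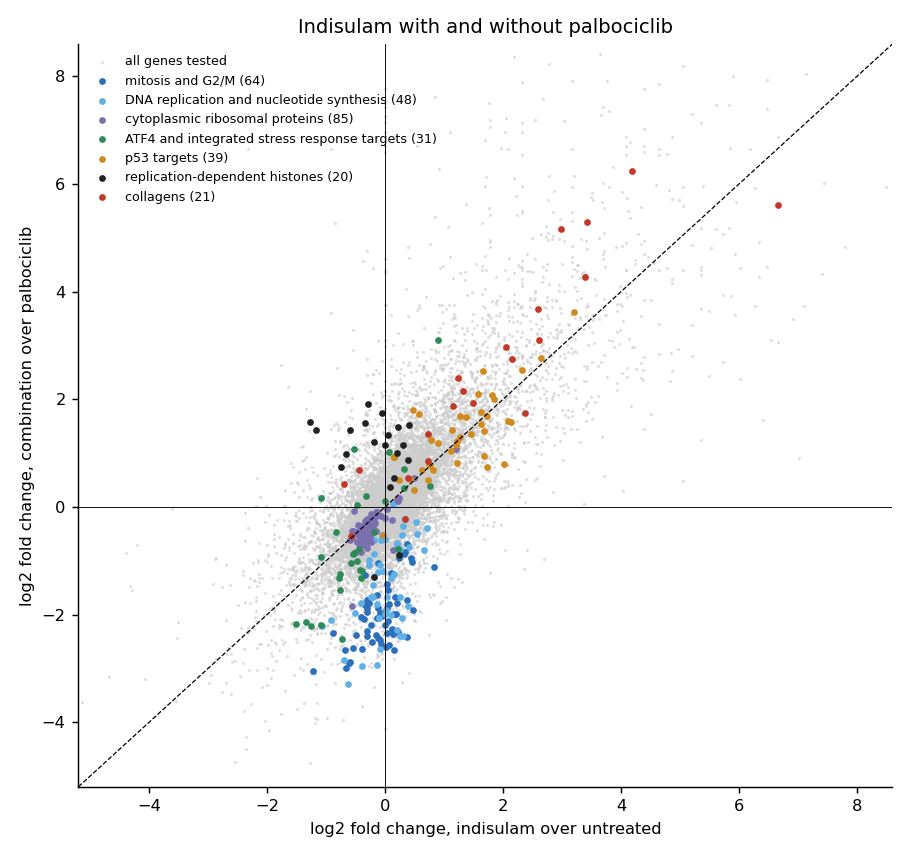
Log2 fold change of indisulam over untreated (x axis) against log2 fold change of P+I over PD (y axis) for the genes tested, with 7 gene lists coloured and a dashed line where both changes are equal. Mitosis and replication genes lie below the dashed line near 0 on the x axis, most p53 targets lie near it and most histones above it, and 10 genes fall outside the axes.

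For 18 of the 24 genes with the largest rises and falls the change with palbociclib present differed from that without it (adjusted p under 0.05 for the interaction). These genes were picked for their extreme P+I against PD change, which is part of the interaction, so the choice itself favours a difference. Over all genes tested, 10.7% had a higher interaction and 14.5% a lower one. NECTIN3-AS1 (4.41 ± 0.67, adjusted p = 0.000227), MYL9 (2.94 ± 0.40, adjusted p = 7.6e-05) and COL5A1 (2.05 ± 0.42, adjusted p = 0.00234) rose by more with palbociclib, and AQP3 (-3.25 ± 0.08, adjusted p = 1.56e-11), GPRC6A (-3.48 ± 0.23, adjusted p = 8.72e-08) and ASF1B (-2.49 ± 0.26, adjusted p = 7.38e-06) fell by more. TXNIP was the exception among the falls. It dropped from 85 and 87.1 to 3.18 and 1.72 CPM without palbociclib, further than with it, and its interaction was 1.52. CPA4 had an interaction of 0.83 ± 0.89 with an adjusted p of 0.551, and its levels without palbociclib were 0.272 and 0 CPM in untreated cells and 7.88 and 8.52 CPM with indisulam. For the low genes of the opposite kind, CADM2 (-2.19 ± 0.59) and ADH1B (-3.31 ± 0.68) had a lower interaction, and LRRC32 did not pass (0.87 ± 0.94).

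Gene structure was related only weakly to the change. Over 13272 protein-coding genes, Spearman's rho with the log2 fold change was 0.03 for the number of exons, 0.05 for gene length, 0.10 for transcript length and 0.21 for GC content, given as descriptions of genes that share the same libraries. The median log2 fold change was -0.01 for genes of 2 to 3 exons and 0.19 for those of 26 or more, and 0.17 for the 286 single-exon genes. By GC content it ran from -0.11 in the lowest quintile to 0.28 in the highest. Among the 9387 genes with a mean of at least 10 CPM these rho values were 0.10, 0.09, 0.12 and 0.21, and the median of the single-exon genes was -0.04. Reads that aligned outside annotated genes made up 3.87 and 5.20% of reads with palbociclib and 5.94 and 5.81% with the combination.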

How the data were processed

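The authors sequenced strand-specific libraries of polyadenylated RNA with single-end reads and aligned them to hg38, and the submitters' processing notes name HISAT2 2.2.1 and HTSeq. The deposited counts are whole reads per Ensembl gene with no normalization. The annotation release and strand setting used for counting are not given in the sources used here. Reads in more than 1 gene or of low mapping quality had been set aside, which affects near-identical and overlapping genes. Of 60683 identifiers, 60370 were matched to a symbol in GENCODE release 44, and the 9 closing lines of each file that name no gene were left out of totals and tests. They held 3.87 to 5.94% of the reads as outside genes in the palbociclib and combination libraries.

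The 10 A549 libraries were fitted in 1 model with edgeR 4.0.16 in R 4.3.3 (quasi-likelihood test, total-count scaling, filterByExpr, Benjamini-Hochberg adjustment, threshold 0.05). The code was also run on simulated counts with known changes, which does not test the calls made here. With 2 libraries a group an exact permutation test cannot go below 0.33. Each standard error was taken as the absolute log2 fold change over the root of the F statistic. Ratios of low counts have exact binomial 95% intervals. Promoters came from RefSeq (GRCh38.p14), with 1 start per gene, and gene models from GENCODE. Alternatives were TMM factors, DESeq2 1.42.0, other filters, only the groups compared, a replicate block, each library left out, a shorter promoter window and only genes of at least 10 CPM.

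Named genes were drug targets and markers, the 12 largest rises and 12 largest falls without overlap and with at least 10 CPM in the higher group, up to 4 members per list in the direction with more calls and up to 2 in the other (any member of lists of at most 9), and the 3 most abundant genes with at most 3 counts in each library of the other group. PLK1 and CCNB2 were added outside this rule. Some genes that the rule admits are not reported here. Of 260 named genes, 139 overlap a gene on the opposite strand, and without the strand setting the reads of such pairs cannot be told apart. The members and lists were chosen with earlier results of these data known. Lists share some members, so they are not independent of each other. The SUM159 libraries were not used here.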

Additional observations from a re-analysis of the deposited data

Results flagged for a closer look

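The change that indisulam brought differed with and without palbociclib, by the interaction term of edgeR's quasi-likelihood test (Benjamini-Hochberg adjusted p under 0.05), for 18 of the 24 genes with the largest rises and falls and for 2 of the low genes. The choice of these genes by their P+I against PD change favours such a difference. Over all genes tested, 10.7% had a higher interaction and 14.5% a lower one. Among the rises named here the difference on the log2 scale was 4.63 for LINC02154, 4.41 for NECTIN3-AS1, 3.21 for MAF, 2.94 for MYL9, 2.05 for COL5A1 and 1.78 for NKAIN4. LINC02154 and MAF held 2 and 5 counts in the palbociclib pair, so the size of their difference is uncertain. Among the falls it was -3.48 for GPRC6A, -3.25 for AQP3, -2.49 for ASF1B, -2.25 for PLPPR1, -2.19 for SUCNR1, -2.13 for HLA-DMB, -2.07 for OR51E1, -1.93 for C9orf152 and -1.39 for both FCGBP and S100P. TXNIP alone among these falls had a positive value, 1.52. The low genes CADM2 and ADH1B had -2.19 and -3.31.

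Of the reads that were not counted on genes, 2 classes were higher with the combination than with palbociclib. Reads on sequences absent from the annotation were 26.5 and 29.5 ppm of all reads, against 7.57 and 9.10 with palbociclib, 10.7 and 10.5 in untreated cells and 16.2 and 14.98 with indisulam. The share of reads aligned outside genes was 5.94 and 5.81% with the combination, against 3.87 and 5.20% with palbociclib, 5.10 and 4.41% in untreated cells and 5.99 and 5.09% with indisulam. Ambiguous reads were lower, at 3.15 and 3.13% against 3.40 and 3.29% with palbociclib, as were reads of low mapping quality, at 9.87 and 9.37% against 9.93 and 10.25%, and unmapped reads, at 1.90 and 1.82% against 2.44 and 2.38%.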

How the results depend on the processing

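The counts of higher and lower genes stayed within 1.5 times of 5279 and 4250 under every alternative run, from 3876 to 5720 higher and from 3426 to 5067 lower. The 2-fold higher genes numbered 1050 with a mean of at least 50 counts, and the genes with a lower interaction numbered 1494 with DESeq2, against 2316 and 2281. Without 1 library each, 2-fold genes ranged from 2226 to 2408 higher and 1030 to 1110 lower, and interaction genes from 1156 to 2141 higher and 1615 to 2843 lower. The replicate block gave 5210 higher and 4191 lower genes and 1624 and 2220 by the interaction. The labels do not say that equal numbers pair libraries, and deviations of same-numbered libraries correlated at -0.03 between P+I and PD and at 0.17 between IN and UT. The median of the CDK inhibitors turned to -0.9251 with a mean of at least 50 counts, that of the alveolar and airway genes to 0.4739 with no filter (settings that change which members enter), and that of the S100 genes ranged from -0.268 to 0.4365 without 1 combination library. The medians of the CDK-activating kinases, the U2 proteins, the small nucleolar RNA host genes and the mitochondrial messages also changed sign in some alternative. Of the 260 named genes, 21 lost a call in at least 1 alternative and none reversed. Levels under 3 counts cannot be read at this depth.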
